A study of Macaca fascicularis with 3 samples.

Results

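The 3p strands of the miR-30 family are the 6 mature miRNAs cut from the 3' side of the miR-30 hairpins, listed as mfa-miR-30a-3p, mfa-miR-30b-3p, mfa-miR-30c-1-3p, mfa-miR-30c-2-3p, mfa-miR-30d-3p and mfa-miR-30e-3p and written below without the species prefix. They were taken by name from the 432 mature miRNAs of the deposited count table, and all 6 were listed. The study sequenced small RNA from the kidney cortex of 3 naïve cynomolgus monkeys (Macaca fascicularis), 1 library per animal, aged 2 to 3 years. The kidney cortex is the outer layer of the kidney, which holds the glomeruli and most proximal tubules. The labels give no treatment and no genetic change, and all 3 libraries formed 1 group. The data therefore allow comparisons between miRNAs and between animals, and none between conditions. The labels do not say how the animals were chosen or whether they differed in any property.

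A miRNA hairpin is cut by the enzymes Drosha and Dicer into a short duplex, and usually one of its strands is kept in an Argonaute protein while the other is degraded. In the miR-30 family the 5p strand is the one usually kept, and all 5p members share one seed, the stretch near the 5' end that pairs with target mRNAs. The family is abundant in kidney, where it is known for its part in keeping podocytes and tubule cells differentiated. The 3p strands do not share the 5p seed and fall into different groups. In human, the 3p strands of miR-30a, miR-30d and miR-30e are near-identical and start alike, and those of miR-30b, miR-30c-1 and miR-30c-2 start with another, closely similar stretch. The deposited table paired each of the 6 monkey names with the human miRNA of the same name. Because the members resemble each other, reads of one could be counted under another in a way the sources used here do not state, and the level of any single member is uncertain to that extent.

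The libraries held 4305977, 4707892 and 3957188 counts assigned to listed miRNAs in animals 1, 2 and 3. Levels are given as counts per 1000000 listed counts (CPM). A floor of 3 counts, taken as an approximate limit for a count of 0, corresponded to 0.697, 0.637 and 0.758 CPM. Of the marker lists, 4 renal miRNAs (miR-192-5p, miR-194-5p, miR-204-5p and miR-215-5p) summed to between 53068 and 61870 CPM in the 3 libraries. Most of this was miR-204-5p, with a mean of 48124 CPM, while miR-215-5p had a mean of 18.9 CPM. Names of erythroid miRNAs summed to between 4374 and 5765 CPM, leucocyte to between 1518 and 1727 CPM, and muscle to between 363 and 562 CPM. Neuron names gave between 107 and 131 CPM, and miR-122a-5p, the liver marker, between 4.04 and 8.82 CPM. Among the 391 names that averaged 10 counts or more per library, 156 (39.9%) spanned over 2-fold. Animal 3 was at the bottom in 89 of these, or 22.8% of the 391. The library of animal 3 also held the fewest counts. For results that rest most on it, values without it are given too.

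Together the 6 strands took 0.201% ± 0.0276 (SD, n = 3) of the listed counts, 26009 of them in all. Animal 1 stood at 0.169%, with a Wilson 95% interval of 0.165 to 0.173%. Animal 2 stood at 0.213% (0.209 to 0.217%) and animal 3 at 0.220% (0.216 to 0.225%). Animal 1 was lower than the other animals by more than counting error, while the intervals of animals 2 and 3 overlapped. Intervals and floors cover counting error only, since the reads carry no molecular identifiers. The let-7 family with miR-98, whose 5p strands are also abundant in this tissue, had 8 listed 3p names that together took 0.0466% ± 0.00596 (SD, n = 3). The 3 listed 3p names of miR-26 took 0.0110% ± 0.00125, and the 2 of miR-10 took 0.00546% ± 0.00414.

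Nearly all of the miR-30 3p reads belonged to miR-30a-3p. This strand held 25207 counts, or 96.9% of the family's 3p counts over the 3 libraries, and its part was 95.1%, 96.8% and 98.6% in animals 1, 2 and 3. The next were miR-30b-3p with 1.30% and miR-30c-2-3p with 1.21% of the pooled 3p counts. miR-30e-3p made 0.231%, miR-30d-3p 0.188% and miR-30c-1-3p 0.161%. The sum over the family is thus the level of miR-30a-3p with little added.

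miR-30a-3p is the strand opposite miR-30a-5p and ranked far above the other members, the next of which was at rank 249 by mean CPM. Its level was 1608 CPM in animal 1, 2058 CPM in animal 2 and 2171 CPM in animal 3, a mean of 1946 CPM ± 298 (SD, n = 3). It ranked 68, 62 and 56 of the listed miRNAs in these libraries. Animal 1 was the lowest and animal 3 the highest, and no 2 of the Wilson intervals overlapped.

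miR-30b-3p had 161 counts in animal 1, 152 in animal 2 and 24 in animal 3, which are 37.4, 32.3 and 6.06 CPM. Animals 1 and 2 were close to each other and animal 3 lay far below both. Its mean was 25.2 CPM ± 16.8 (SD, n = 3), and 34.8 CPM without animal 3. miR-30c-2-3p had 127, 121 and 66 counts, or 29.5, 25.7 and 16.7 CPM, with a mean of 24.0 CPM ± 6.58 (SD, n = 3), and 27.6 CPM without animal 3. Here too animal 3 was the lowest, by a smaller margin.

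The remaining 3 strands were close to the limit of the table, which kept only names with at least 15 reads over the libraries. miR-30e-3p had 22, 23 and 15 counts in animals 1, 2 and 3, or 5.11, 4.89 and 3.79 CPM, and its Wilson intervals overlapped in all pairs of animals. miR-30d-3p had 16, 16 and 17 counts, or 3.72, 3.40 and 4.30 CPM, with no animal standing out. miR-30c-1-3p had 31 counts (7.20 CPM) in animal 1, 11 counts (2.34 CPM) in animal 2 and 0 counts in animal 3. In animal 3 the floor of 3 counts is 0.758 CPM, and the Wilson upper limit was 0.971 CPM. The intervals of miR-30c-1-3p in animals 1 and 2, 5.07 to 10.2 and 1.30 to 4.18 CPM, did not overlap.

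**Figure D1:**
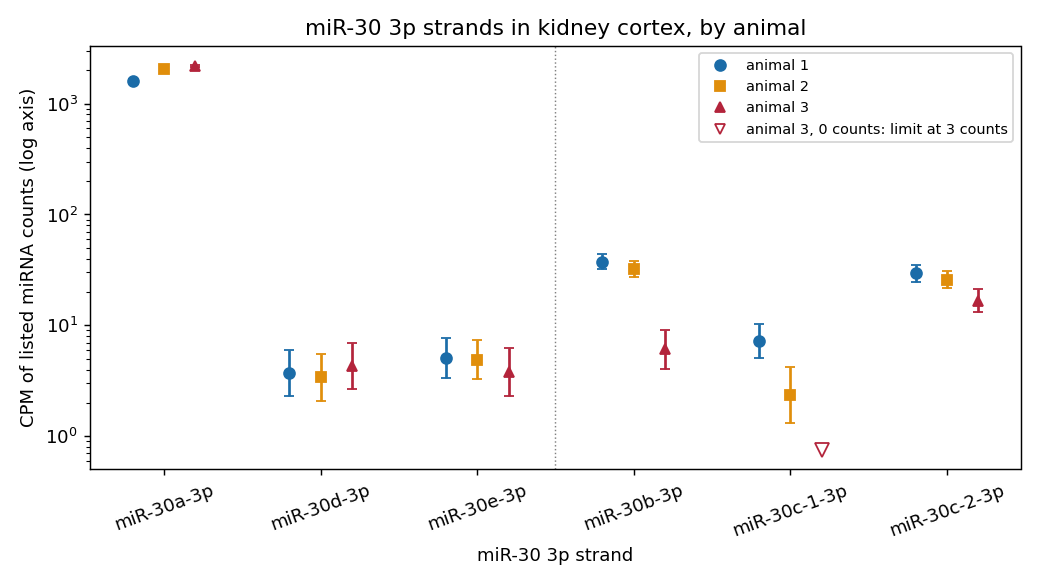
Level of each miR-30 3p strand in the 3 animals, in CPM of listed miRNA counts on a log axis. Points are single libraries with Wilson 95% confidence intervals for counting error, the open triangle is the level of 3 counts where miR-30c-1-3p had 0 counts, and the dotted line separates miR-30a, miR-30d and miR-30e from miR-30b and miR-30c. miR-30a-3p lies between 1608 and 2171 CPM and every other strand at or below 37.4 CPM, and animal 3 is the lowest for the 3 strands on the right.

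In the order of mean CPM, 2 of the 5 neighbouring pairs kept their order in all 3 animals. miR-30a-3p exceeded miR-30b-3p by a mean log2 difference of 6.53 ± 1.52 (SD, n = 3), a ratio of means of 77.1, on log2(CPM + 1). miR-30c-2-3p exceeded miR-30e-3p by 2.13 ± 0.22, a ratio of means of 5.21. Both gave an exact two-sided sign-flip permutation p of 0.25, the smallest that 3 animals allow, and 0.625 after Benjamini-Hochberg adjustment over the 5 pairs. The other neighbours did not differ beyond their spread, and without animal 3 the pairs in constant order numbered 3. miR-30b-3p and miR-30c-2-3p exchanged places in animal 3, with 1.27 and 1.26 reads of miR-30b-3p for each read of miR-30c-2-3p in animals 1 and 2 and 0.364 in animal 3. miR-30e-3p, miR-30d-3p and miR-30c-1-3p, at means of 4.60 CPM ± 0.706, 3.80 CPM ± 0.455 and 3.18 CPM ± 3.67 (SD, n = 3), were not resolved from each other. The mean of miR-30c-1-3p depended on the animals, at 1.17 CPM without animal 1 and 4.77 CPM without animal 3. Mature miRNAs are of similar length, so levels were compared without a length correction. How readily each strand entered a library was neither measured nor corrected for, so levels, ratios and shares compare reads and not molecules.

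The 6 strands differed widely in how much of their hairpin's reads they took. The share of the 3p arm, that is 3p reads over the sum of 3p and 5p reads, is formed within a library and needs no scaling. For miR-30a, animal 1 had 2.75% (Wilson 95% interval 2.69 to 2.82%), animal 2 had 3.32% (3.25 to 3.38%) and animal 3 had 2.61% (2.55 to 2.66%). Its mean was 2.89% ± 0.376 (SD, n = 3), or 33.6 reads of 5p for each read of 3p over the pooled libraries. The 3p arm was thus the minor arm even for the most abundant member.

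For miR-30b the 3p arm took 0.571%, 0.515% and 0.102% of the hairpin's reads in animals 1, 2 and 3. The interval in animal 3, 0.0686 to 0.152%, lay below those of animals 1 and 2, which were 0.490 to 0.666% and 0.439 to 0.603%. For miR-30e the share was 0.0957%, 0.0973% and 0.0673%, with overlapping intervals. For miR-30d it was 0.0165%, 0.00991% and 0.0117%, again with overlapping intervals. Without animal 3 the mean share of miR-30b was 0.543% in place of 0.396%. Over the pooled libraries there were 240 reads of 5p for each read of 3p for miR-30b (183 without animal 3), 1147 for miR-30e and 8235 for miR-30d.

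Both miR-30c hairpins give the same 5p strand, which the table lists once, so the denominator of each holds 5p reads of the other. Against the whole 5p row, miR-30c-2-3p took 0.0617%, 0.0583% and 0.0308% in animals 1, 2 and 3. miR-30c-1-3p took 0.0151%, 0.00530% and 0% in the same animals. For its 0 counts in animal 3, the floor of 3 counts gives 0.00140% and the Wilson upper limit was 0.00179%. If the 5p reads came equally from both hairpins, the mean share of miR-30c-2-3p would be 0.100% in place of 0.0502%. These shares are therefore lower limits for the hairpins themselves.

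**Figure D2:**
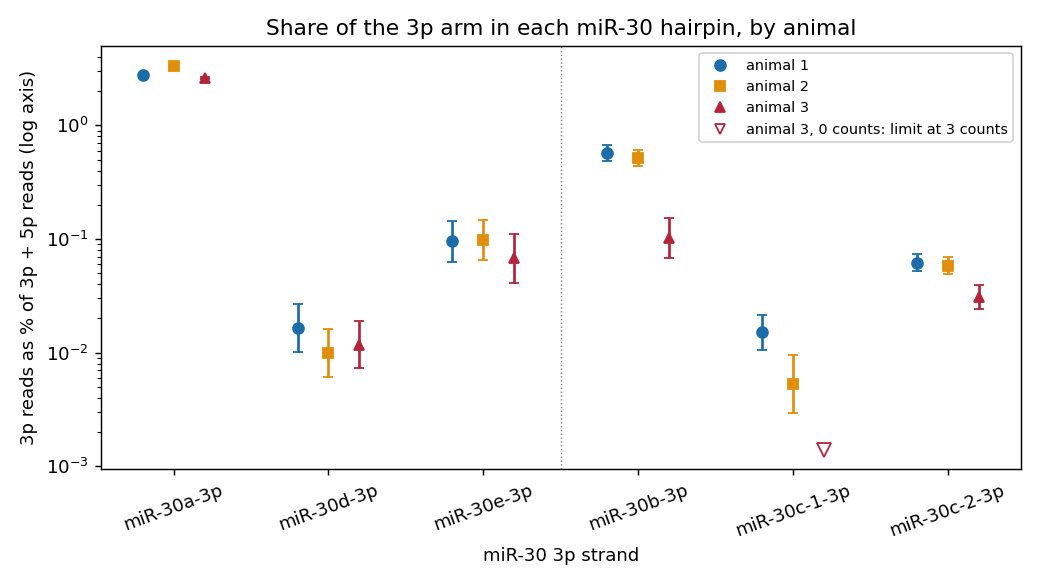
Reads of the 3p arm as a percentage of the reads of both arms for each miR-30 hairpin, on a log axis, in the 3 animals. Points are single libraries with Wilson 95% confidence intervals, the open triangle is the share at 3 counts for miR-30c-1-3p in animal 3, and both miR-30c names use the same 5p row. The shares run from 3.32% for miR-30a in animal 2 down to 0.00530% for miR-30c-1 in animal 2, and that of miR-30b lies at 0.102% in animal 3 against 0.571% and 0.515% in animals 1 and 2.

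In the human genome the miR-30 genes lie in neighbouring pairs, miR-30a with miR-30c-2, miR-30b with miR-30d and miR-30e with miR-30c-1, and their position in the monkey genome was not used here. The ratio of the 3p strands within a pair varied between animals. miR-30a-3p had 54.5, 80.1 and 130 times the reads of miR-30c-2-3p in animals 1, 2 and 3. miR-30b-3p had 10.1, 9.50 and 1.41 times the reads of miR-30d-3p, with overlapping intervals in animal 3, and the share of its arm was 34.7, 52.0 and 8.70 times that of miR-30d. miR-30e-3p had 0.710 and 2.09 times the reads of miR-30c-1-3p in animals 1 and 2, with overlapping intervals in both. In animal 3 the floor of 3 counts gave at least 5 times, leaving aside the counting error of miR-30e-3p. No order of this pair was resolved in animals 1 and 2. The near-identical pair of miR-30a-3p and miR-30e-3p also lay far apart, at ratios of 315, 421 and 573 in animals 1, 2 and 3. The sequence that the authors' reference held for either name is not given in the sources used here, so what these ratios compare is uncertain to that extent.

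The 3p shares were then set beside those of other hairpins in which the 5p arm dominates. Of 134 pairs of arms in the table, 79 had more 5p than 3p reads over the 3 libraries. The 73 of these outside the family had a median 3p share of 2.53%, with quartiles at 0.356% and 11.7%. The 6 miR-30 pairs had a median of 0.0685%. A 3p name needs 15 reads to be listed, so a low share can be seen only where the hairpin has many reads, and the lists are not alike in this. A narrower list, set after the values were seen, holds the 24 hairpins whose reads of both arms were at least the 68891 of miR-30e. Its 18 members outside the family had a median share of 0.0517% and ranged from 0.0192% to 1.04%. Among these 24 5p-dominant hairpins, miR-30c-1 with 0.00669% and miR-30d with 0.0121% were the lowest and miR-30a with 2.89% the highest. The others were at rank 12 from the lowest for miR-30c-2, 14 for miR-30e and 21 for miR-30b. Hairpins with no listed 3p name, such as that of miR-100-5p at a mean of 6763 CPM, are not ranked. Their 3p shares could lie below those of the listed pairs. An alternative added after seeing the data split the shared 5p row equally between the miR-30c hairpins. With that split, miR-30d was the lowest, miR-30c-1 followed with 0.0134% and miR-30c-2 moved to rank 15 with 0.0999%. Some other pairs of the list, such as those of let-7a and miR-26a, also shared a 5p row, and those rows were left whole. The ranks after the split therefore rest on unequal treatment. In the fixed families, the median share was 0.241% for 8 pairs of let-7, 0.0467% for 3 of miR-26 and 0.0405% for 2 of miR-10. let-7a-3p, the most abundant of those 3p strands at 234 CPM ± 37.3 (SD, n = 3), took 0.683% of its pair.

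**Figure D3:**
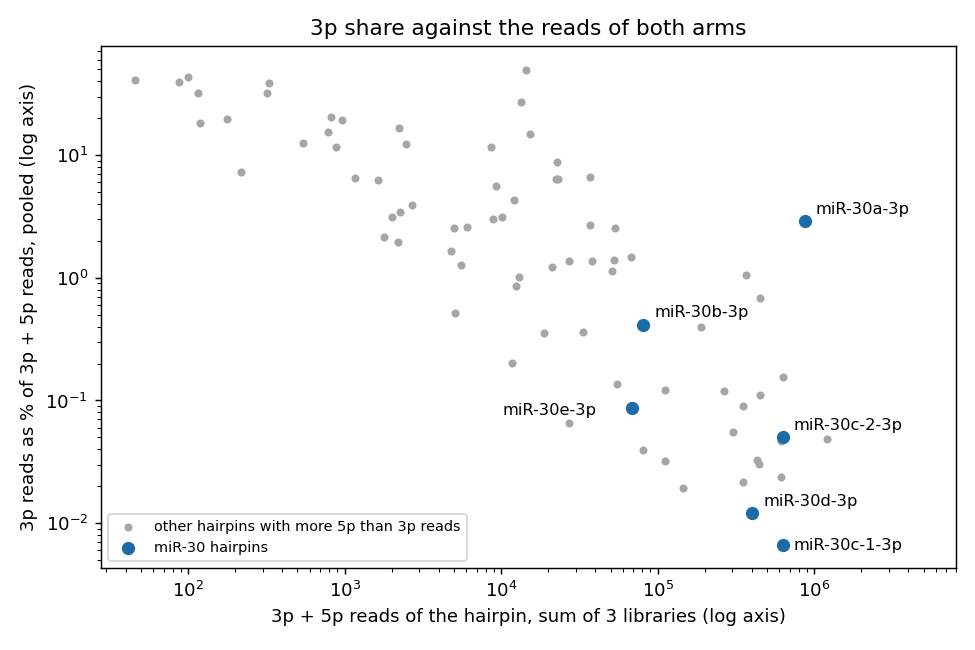
Share of the 3p arm over the pooled libraries against the reads of both arms, both on log axes, for the 79 hairpins with more 5p than 3p reads. Blue points are the 6 miR-30 pairs and grey points the other 73, and the empty lower left corner reflects the minimum of 15 reads per listed name. Among the plotted hairpins with at least the reads of miR-30e, miR-30a lies highest, at 2.89%, and miR-30c-1 and miR-30d lie lowest, at 0.00669% and 0.0121%.

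The members also differed in how much they varied between animals. Each of the 391 names averaging 10 counts or more was tested for differences among the 3 libraries beyond counting error. The chi-square homogeneity test set its counts against library sizes scaled by the trimmed mean of M values (TMM), and p was adjusted over the 391 by Benjamini-Hochberg. The test called 80.6% of all 391, and all 6 members passed the minimum. It called 4 of the 6, namely miR-30a-3p, miR-30b-3p, miR-30c-1-3p and miR-30c-2-3p, so the family's count is no higher than the background. This test compares 3 libraries, and with 1 library per animal the spread between animals and between library preparations cannot be told apart. Likewise, fewer cells of a type and less of the miRNA per cell cannot be told apart in tissue.

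By size, 2 of the 6 members had a span (highest over lowest animal, TMM-scaled CPM) above 2-fold, against 39.9% of the 391. The median span was 1.55-fold over the 6 members, with miR-30c-1-3p at its lower bound, and 1.71-fold over all 391. miR-30b-3p was 5.74-fold lower in animal 3 than in animal 1 and 4.76-fold lower than in animal 2, and its adjusted p by the chi-square test with edgeR's TMM factors was 1.28e-17. Between animals 2 and 1 the ratio was 0.830 (exact 95% interval 0.660 to 1.04), so without animal 3 the span fell to 1.21-fold and the call was lost. miR-30c-1-3p was at least 8.83-fold lower in animal 3 than in animal 1, taking 3 counts as the floor in animal 3 and leaving aside the counting error of animal 1, and its adjusted p was 7.37e-08. With the counting error of both libraries, the exact 95% upper limit of the ratio was 0.148 against animal 1 and 0.530 against animal 2. It also stood 3.21-fold lower in animal 2 than in animal 1 and was still called without animal 3, and the same floor gives at least 2.76-fold lower in animal 3 than in animal 2. miR-30c-2-3p was 1.65-fold lower in animal 3 than in animal 1 and 1.38-fold lower than in animal 2, with an adjusted p of 0.00585. It was no longer called without animal 1 or without animal 3.

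miR-30a-3p spanned 1.45-fold in the other direction, with animal 3 at 1.45 times (exact 95% interval 1.41 to 1.50) and animal 2 at 1.23 times (1.19 to 1.27) animal 1. The test called it at an adjusted p of 2.47e-116 and a mean count of 8402, and it was called in each pair of animals. The coefficient of variation between animals was 18.4%, against 1.09% from counting alone. For miR-30d-3p the coefficient was 17.8% with 24.7% from counting alone, and for miR-30e-3p it was 11.3% with 22.4%. Neither was called, at adjusted p values of 0.627 and 0.805. Their depth leaves wide limits: the ratio of animal 3 to animal 1 was 1.24 (exact 95% interval 0.590 to 2.63) for miR-30d-3p and 0.798 (0.385 to 1.61) for miR-30e-3p. A change as large as that of miR-30b-3p lies outside both intervals, and one as large as that of miR-30a-3p lies inside them.

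Summed by similar sequence, a grouping made after the values were known, miR-30b and miR-30c gave the opposite order of the animals to miR-30a. Summed over miR-30b-3p, miR-30c-1-3p and miR-30c-2-3p, the level was 73.3, 57.3 and 24.2 TMM-scaled CPM in animals 1, 2 and 3, and each of these 3 strands was lowest in animal 3. Summed over miR-30a-3p, miR-30d-3p and miR-30e-3p it was 1600, 1965 and 2317, and nearly all of this was miR-30a-3p. Without it, miR-30d-3p and miR-30e-3p together gave 8.73, 7.88 and 8.60, and on unscaled CPM 8.82, 8.28 and 8.09, the order of miR-30b and miR-30c, on 38, 39 and 32 counts. miR-30e-3p by itself was also lowest in animal 3, though the homogeneity test did not call it. Of the 6 members, 3 were both called and lowest in animal 3, beside 32.5% of all 391 miRNAs. The difference between the groups was not tested.

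**Figure D4:**
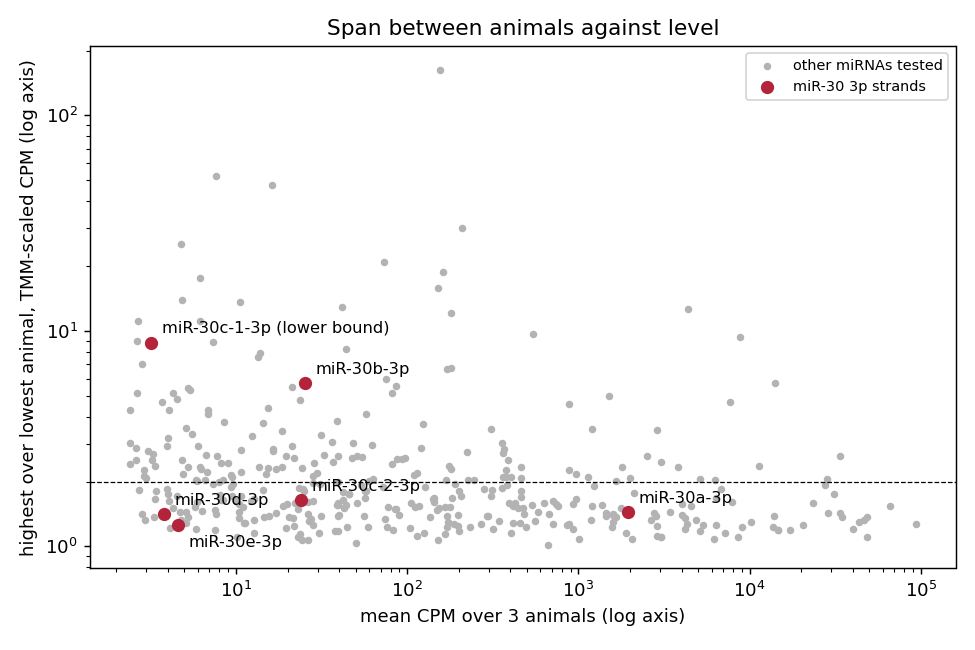
Highest over lowest animal on TMM-scaled CPM against mean CPM over the 3 animals, both on log axes, for the 391 names averaging 10 counts or more. Red points are the 6 miR-30 3p strands, grey points all other miRNAs, and the dashed line marks 2-fold. miR-30b-3p at 5.74-fold and miR-30c-1-3p at its lower bound of 8.83-fold lie above the line and the other 4 strands below it, among many other miRNAs.

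Within hairpins, where scaling plays no part, the ratio of 3p to 5p reads was tested between libraries with a chi-square test of the counts, adjusted over 134 pairs of arms. It called 66.4% of all pairs and 4 of the 6 miR-30 pairs, the same 4 members. All 4 had their lowest 3p share in animal 3, as had 39 of the 89 pairs called. Over all pairs, 29.1% of the 134 were called with their lowest share there, beside 4 of the 6 members. Of the 18 pairs outside the family in the narrower list of abundant 5p-dominant hairpins, 13 were called. Whether called or not, 11 of these 18 had their lowest share in animal 3, and so had 5 of the 6 miR-30 pairs. Over all 73 5p-dominant pairs outside the family, 25 had their lowest share there. For miR-30b the log2 ratio of 3p to 5p was -7.44, -7.59 and -9.93 in animals 1, 2 and 3, and animal 3 minus the mean of the other animals was -2.42. For miR-30c-2 it was -10.66, -10.74 and -11.67, a difference of -0.96. For miR-30a the ratio was -5.14, -4.86 and -5.22, so its animal 3 was the highest in level and the lowest in 3p share. The same difference was -0.52 for miR-30e and -0.12 for miR-30d, which the test did not call, at adjusted p values of 0.516 and 0.389. Without animal 3 only miR-30a and miR-30c-1 were called, and the share of all pairs called was then 32.8%.

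Other 3p strands of abundant 5p families were read in the same libraries. Of all 391 names, 80.6% were called, and 32.5% were both called and lowest in animal 3. The counts of names lowest in animal 3 given next need no call, so the 32.5% is not a like background for them. A like share over all names is not given here, so these counts are descriptive only. In let-7, 2 of the 7 names that averaged 10 counts were called by the homogeneity test, and 1 of its 8 names was lowest in animal 3. In miR-26, 2 of 3 were called and 0 were lowest in animal 3. In miR-10 both were called and both were lowest in animal 3, with a median span of 11.0-fold against 1.23-fold for let-7 and 1.28-fold for miR-26. Animal 3 was thus the lowest for some 3p strands and not for others, within miR-30 as between these families.

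For each member, the 2 miRNAs with the most similar profile over the 3 animals were taken from 251 others that averaged 100 counts or more. Likeness was the Euclidean distance between log2(TMM-scaled CPM + 1) values centred on their means, over 3 animals only. miR-30a-3p lay nearest to miR-340-3p (distance 0.0711) and miR-505-5p (0.0750). miR-30d-3p lay nearest to miR-10b-5p (0.0422) and miR-194-5p (0.0424), and miR-30e-3p to miR-15a-5p (0.0633) and miR-18a-5p (0.0748). Both of these strands varied less than counting alone gives, and the added 1 CPM flattens profiles at their low level. Their nearest names therefore say little. miR-30c-2-3p lay nearest to miR-32-5p (0.0151) and miR-7180-3p (0.0164).

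The neighbours of the members that were lowest in animal 3 by the widest margin are given with their counts. miR-30b-3p lay nearest to miR-221-3p (0.0597), which had 9277, 9334 and 1592 counts in animals 1, 2 and 3, and then to miR-455-3p (0.138), with 5560, 5168 and 1033 counts. miR-30c-1-3p lay nearest to miR-381-3p (0.302), with 1378, 825 and 176 counts, and to miR-513a (0.495), with 621, 342 and 103. The search itself fixed that these neighbours share the low value of animal 3 and have more counts.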

How the data were processed

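Small RNA from the kidney cortex of 3 animals was sequenced, 1 library each. Per the labels' protocols, 5 µg of total RNA from 25 to 30 mg of frozen tissue was enriched for small RNA, and 12 ng of it entered each library. The deposited raw counts are whole reads per mature miRNA; per the file headers, reads were mapped with 0 mismatches and names with at least 15 reads kept. The aligner, trimming, reference release and rule for reads matching several names were not given in the sources used here. The authors also deposited a normalized signal made with edgeR, per the file headers, which equals the raw count times 1 factor per library (0.989, 0.951 and 1.06); it served only as an alternative.

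CPM, shares and 3p percentages were computed from raw counts. TMM factors (edgeR 4.0.16, R 4.3.3) were 1.01, 1.05 and 0.940. The threshold on adjusted p was 0.05. The tests were checked on simulated data with counting error and set fold changes only, so the check does not cover other spread between libraries. With a single group, edgeR's quasi-likelihood test had no contrast to test. miR-30 5p names served only as denominators. Named were all 6 members, the 2 nearest profiles of each, and fixed 3p families (let-7, miR-10, miR-26) with values above 100 CPM. Alternatives were DESeq2 1.42.0 size factors, totals, other filters, 1 CPM added and leaving out each animal. Members and lists were chosen with earlier results of these data known. Columns of per-sample values left unmapped numbered 0. Mature sequences were not used here.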

Additional observations from a re-analysis of the deposited data

How the results depend on the processing

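Of 20 recalculated values of the comparison results, 18 stayed within 1 SD or, for counts, 1.5 times. Both that moved were without animal 3. The members called different between libraries numbered 4 and ranged from 2 to 4 when 1 animal was left out, and those called for their 3p to 5p ratio likewise numbered 4 and ranged from 2 to 4. The background moved too: without animals 1, 2 and 3 the tests called 65.5%, 74.7% and 61.1% of 391 names and 47.8%, 58.2% and 32.8% of 134 pairs. At a mean count of at least 100 only 3 members could be tested, and 3 were called, beside 94.6% of 259 names. Leaving out 1 of 3 animals moves a mean by less than 1 SD by construction, so the summed share and the CPM values could not have passed that limit there, although the mean of miR-30c-1-3p ran from 1.17 to 4.77 CPM, and neither could a share under the authors' single factor per library. Of 92 values for single members, 4 moved: the 3p share of miR-30c-2-3p with the 5p row split, and the spans of miR-30b-3p (1.21-fold without animal 3) and miR-30c-1-3p (at least 2.76-fold without animal 1 and 3.21-fold without animal 3). The 2 neighbouring pairs in constant order were followed under alternatives chosen after seeing the data. With counts of 0 to 31 per library, miR-30c-1-3p, miR-30d-3p and miR-30e-3p are limited by depth. No paired analysis was possible because all 3 libraries belong to 1 group.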
